A study of Mus musculus with 6 samples.

Results

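The cytosolic ribosomal protein genes encode the proteins that, together with ribosomal RNA, build the large and small subunits of the ribosome. They were taken from a table of 13935 mouse genes as every symbol made of Rpl or Rps and a digit, plus Rplp0, Rplp1, Rplp2 and Rpsa, leaving out 5 rows marked as pseudogenes and 10 rows of the Rps6k kinases. The rule found 85 genes: 76 proteins of the standard ribosome (42 of the large subunit, 31 of the small subunit and 3 of the P stalk), 8 paralogs or retrogenes, and Rps19bp1, which encodes a protein that binds Rps19 and is not itself a ribosomal protein. Of these, 84 had enough counts to be tested. Rpl3l did not.

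RNA was sequenced from bone marrow cells that the series title calls long-term hematopoietic stem cells, the rare cells that renew the blood for life, while the sample labels name them stem and progenitor cells. The Mel18 knockout libraries (mouse 4, mouse 5 and mouse 6) came from mice in which Mel18 was deleted conditionally in the blood system, and the wild-type libraries (mouse 1, mouse 2 and mouse 3) from mice labelled wild type. Mel18 is the product of Pcgf2 and a subunit of a polycomb repressive complex, which silences genes through chromatin. The sources used here do not give the Cre line, the exons removed, the age of the mice, the sort gate or any pooling of cells. The authors' deposited table heads its comparison Cre+ against Cre-, so an effect of Cre and one of the deletion cannot be told apart.

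Ribosomal protein mRNAs belong to the TOP class: they begin with a C and a run of pyrimidines, and mTOR signalling through Larp1 sets how well they are translated. In the blood, stem cells are known for a low rate of protein synthesis, and in people the loss of a single copy of certain ribosomal protein genes causes Diamond-Blackfan anaemia, a failure of red cell production. Unassembled ribosomal proteins can also bind Mdm2 and so stabilise p53.

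Start sites from RefSeq (build GRCm38.p6) were available for 64 of the 85 genes and are shown for 5 members, because the TOP start is what this gene class shares beyond its name. Each line runs from 30 bases before the listed start to 25 bases of transcript, on the strand of the gene, and capitals mark the letters CTTTC. Rplp2 (chromosome 7, 141447621 to 141447675, plus strand), Rpl38 (chromosome 11, 114668550 to 114668604, plus) and Rpl28 (chromosome 7, 4792935 to 4792989, plus) hold the letters at or next to the start. Rpl35 (chromosome 2, 39005107 to 39005161, minus) holds them in a pair, and Rpl22l1 (chromosome 3, 28805478 to 28805532, plus), a paralog of Rpl22, does not hold them in this window. A TOP start can have other letters than CTTTC, so their absence does not mean that it lacks such a start. The gene model counted for Rpl22l1 begins at base 28805511, where its line reads a C and a run of pyrimidines.
Rplp2: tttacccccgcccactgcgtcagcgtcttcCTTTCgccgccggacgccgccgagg
Rpl38: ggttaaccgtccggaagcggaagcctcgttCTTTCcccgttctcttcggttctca
Rpl28: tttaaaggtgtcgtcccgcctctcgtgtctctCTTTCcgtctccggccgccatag
Rpl35: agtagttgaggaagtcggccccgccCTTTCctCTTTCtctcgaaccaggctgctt
Rpl22l1: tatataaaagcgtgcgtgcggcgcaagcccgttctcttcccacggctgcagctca

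From 40 bases before to 30 bases after the listed start, CTTTC on the gene's own strand was found in 19 of 56 standard ribosomal protein genes (33.9%), against 9.03% of all 27025 genes with a window and 7.29% of those tested here. On the opposite strand the shares were 10.7% of the ribosomal protein genes and 8.37% of all genes, so the class stood apart from all genes on the gene's own strand by these shares. In the whole 300-base window, on either strand, CCGGAAG (a core of ETS factor sites) was found in 22 of 56 (39.3%), against 9.12% of all genes and 18.7% of those tested. AAGATGGC (a core of YY1 sites) was found in 4 of 56 (7.14%), against 2.88% of all genes and 4.87% of those tested. These are matches of letters, and binding was not measured.

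Library totals lay between 33537679 and 37180701 counts in the knockout libraries and between 26469336 and 30950057 in the wild-type libraries. Pcgf2 had 72, 72 and 107 counts in knockout mice 4, 5 and 6, against 43, 68 and 54 counts in wild-type mice 1, 2 and 3, so it does not separate the labels, and a count of the entire gene cannot say whether its deleted exons were read. The label of knockout mouse 6 ends in sample number 37, while the other 5 run from 6 to 10, and the counts and medians of the class, and the fold changes that move by over 1.5 times, are therefore also given without it. Summed markers of stem cells were 2834 to 4174 CPM (counts relative to a scaled library total) in the knockout libraries and 1097 to 2168 CPM in the wild-type libraries, with all 18 markers detected in every library except wild-type mouse 1, where 2 were at 0. Markers of lineage-primed progenitors summed to 679 to 1843 CPM in the knockout libraries, against 6471 to 15219 CPM in the wild-type libraries, and those of cycling cells to 562 to 1314 CPM, against 2191 to 3253 CPM. All 14 progenitor markers were detected in each wild-type library, and 2, 1 and 0 were at 0 in knockout mice 4, 5 and 6. Markers of monocytes summed to 813 to 927 CPM in the knockout libraries, against 1111 to 1649 CPM in the wild-type libraries, and 4 of the 10 were called lower in the edgeR fit, with 3, 2 and 1 at 0 in knockout mice 4, 5 and 6 and 0 at 0 in the wild-type libraries. The groups thus differed in their mix of cell types or states by these markers, and the part of this in any result below was not tested. In such sorted populations, fewer cells of a type and less RNA per cell cannot be told apart.

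Ribosomal protein genes took 3.23%, 3.26% and 6.05% of all counts in knockout mice 4, 5 and 6, against 2.98%, 2.64% and 1.82% in wild-type mice 1, 2 and 3. Every knockout library was above every wild-type library, but the gap between knockout mouse 5 or 4 and wild-type mouse 1 was small beside the distance of knockout mouse 6 from both. The means were 4.18 ± 1.62% in the knockout and 2.48 ± 0.598% in the wild type (SD, n = 3 each), a ratio of 1.69. Without knockout mouse 6 the knockout mean was 3.25%, a ratio of 1.31. The median gene of the class had 269, 264 and 536 CPM in the knockout libraries and 247, 231 and 139 CPM in the wild-type libraries.

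The large and small subunit shares moved in the same direction from library to library, but not in proportion. The small subunit share divided by the large was 0.738, 0.736 and 0.914 in knockout mice 4, 5 and 6. In wild-type mice 1, 2 and 3 this ratio was 0.773, 0.756 and 0.688. Large subunit genes took 1.75%, 1.77% and 2.95% of counts in knockout mice 4, 5 and 6, against 1.58%, 1.40% and 1.01% in wild-type mice 1, 2 and 3. Small subunit genes took 1.30%, 1.30% and 2.702% in the knockout libraries, against 1.22%, 1.06% and 0.695% in the wild-type libraries. For the P stalk, the flexible arm that recruits elongation factors, the shares were 0.181%, 0.190% and 0.389% in the knockout libraries, against 0.182%, 0.171% and 0.111% in the wild-type libraries. Large and small subunit groups did not overlap, while the P stalk share of knockout mouse 4 lay below that of wild-type mouse 1. Knockout mouse 6 was the highest library for 79 of the 84 tested genes and wild-type mouse 3 the lowest for 79.

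**Figure D1:**
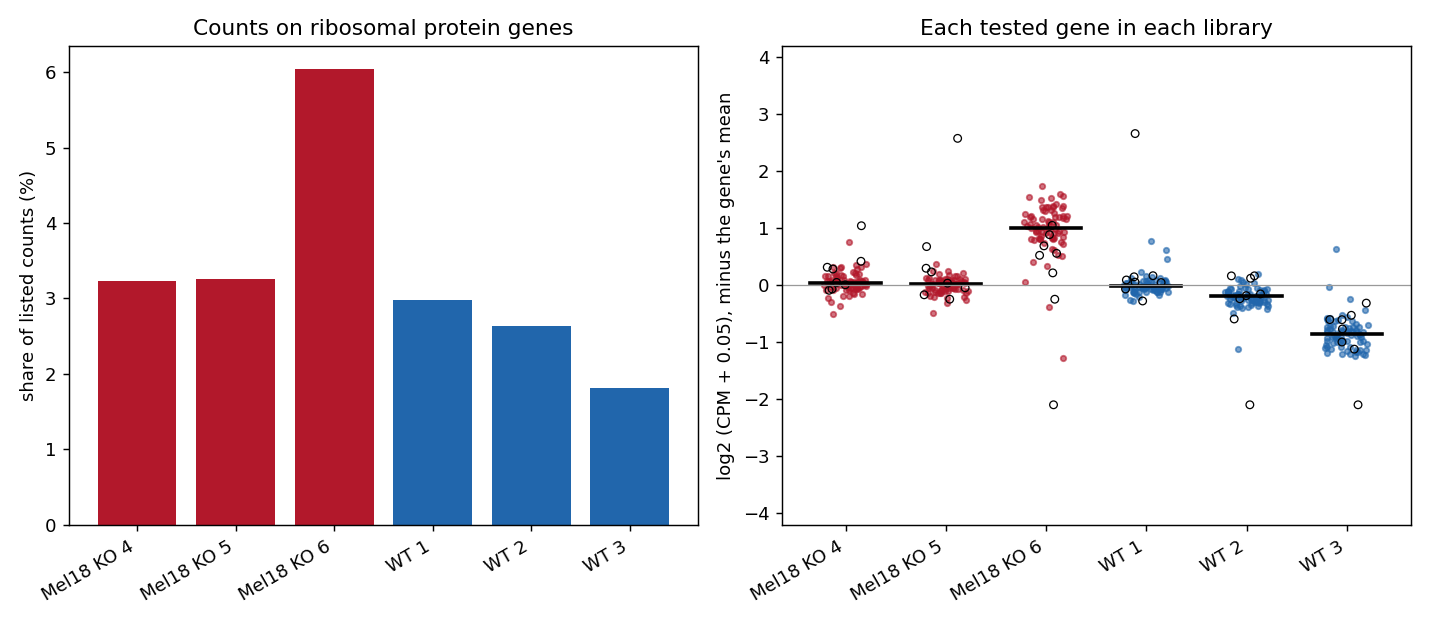
Share of all counts on ribosomal protein genes (left, in percent) and log2 CPM of each of the 84 tested genes minus its own mean over the libraries (right, with 0.05 added to CPM), with knockout libraries in red left of wild-type libraries in blue, open circles for paralogs, the retrogene and Rps19bp1, and black lines at the medians. The medians sit at 0.04, 0.02 and 1.01 in knockout mice 4, 5 and 6 and at -0.01, -0.19 and -0.86 in wild-type mice 1, 2 and 3.

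In the fit over all 12603 tested genes, 81 of the 84 were fitted higher in the knockout libraries and 3 lower. Their median log2 fold change was 0.73 (quartiles 0.61 and 0.88), beside -0.01 over all tested genes, of which 49.6% were fitted higher. With edgeR's quasi-likelihood test and Benjamini-Hochberg adjustment, 0 members passed the threshold of 0.05, where 0.0159% of all genes passed as higher and 0.127% as lower. The lowest adjusted p from this edgeR fit was 0.267, for Rpl22l1. At an unadjusted p below 0.05 in that test there were 26, all higher, beside 5.36% of all genes higher and 6.51% lower.

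For 32 of the 84 genes every knockout library was above every wild-type library, and for 0 every knockout library was below, while over all genes the shares were 10.1% and 11.3%. Without knockout mouse 6, 85 members were tested and their median log2 fold change was 0.34. Then 33 were higher and 1 lower without overlap, beside 15.8% and 16.3% of all genes, which are larger shares because fewer libraries were compared. At an unadjusted p below 0.05 there were 3 higher, beside 4.99% of all genes. DESeq2 called 2 members higher, Rpl13 (log2 fold change 1.07, adjusted p = 0.0338) and Rpl36 (1.24, adjusted p = 0.0474), where it called 1.63% of all genes higher. In the authors' deposited table, the median log2 fold change of the same 84 genes was 0.17, with 80 above 0 and an adjusted p of 1 for all of them. Of all genes listed there, only 1 had an adjusted p below 0.05 in the authors' fit. These values come from the authors' own fit. Their median lies below the 0.73 of the present fit, and the cause of this difference was not tested. The lowest p in the authors' deposited table was 0.0489, for Rpl39l, which had 0 counts in 3 libraries, and the next among the 84 was 0.376, for Rpl4.

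**Figure D2:**
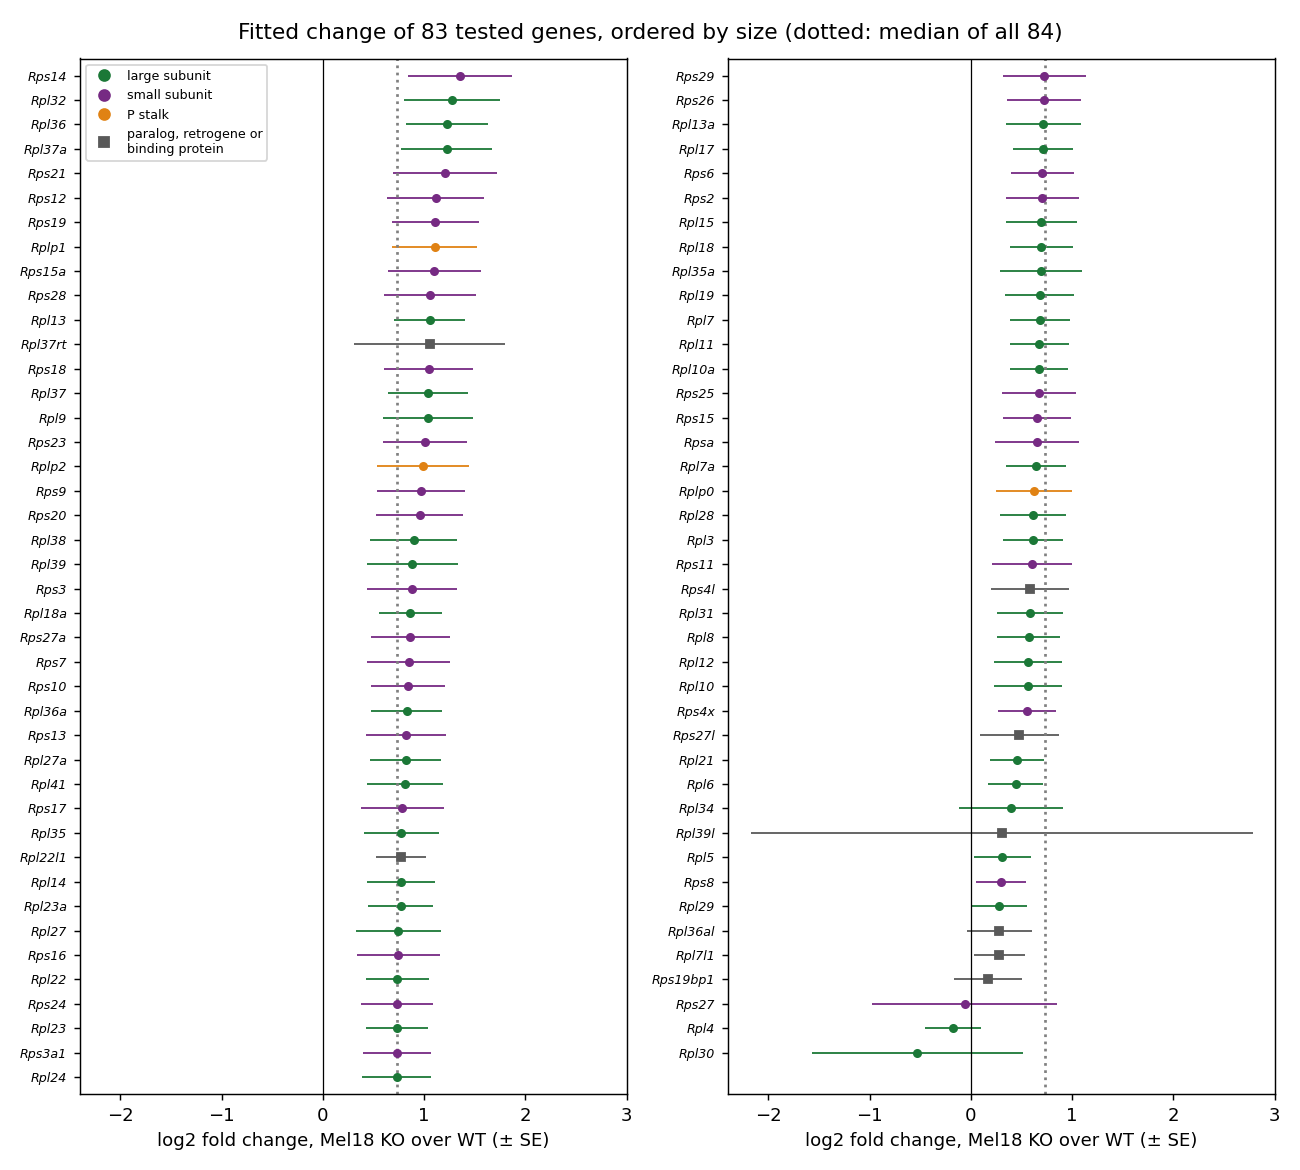
Fitted log2 fold change, Mel18 knockout over wild type, of the tested genes, less 1 that is not reported here, each with its standard error, ordered from the highest at top left to the lowest at bottom right and coloured by subunit. The highest is Rps14 at 1.35 and the lowest Rpl30 at -0.53, and the middle of the list lies between 0.61 and 0.88.

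Of the 42 large subunit genes, 40 had a fold change above 0, and their median was 0.70 on the log2 scale, or 0.35 without knockout mouse 6. Rpl32 (chromosome 6, 115805514 to 115808743) had 672, 689 and 1920 CPM in knockout mice 4, 5 and 6, against 596, 481 and 280.1 CPM in wild-type mice 1, 2 and 3. The groups did not overlap, with knockout mouse 6 far above the rest (log2 fold change 1.27, SE 0.47, and 0.59 without knockout mouse 6). Rpl36 (chromosome 17, 56613395 to 56614246) had 251, 259.6 and 587 CPM in the knockout libraries, against 199, 173 and 98.0 CPM in the wild-type libraries. Here too the groups were apart (1.22, SE 0.41, and 0.70 without knockout mouse 6). Rpl37a (chromosome 1, 72711260 to 72713813), a zinc-binding protein, had 228, 238 and 644 CPM in the knockout libraries, against 186, 188 and 102 CPM in the wild-type libraries, again without overlap (1.22, SE 0.45, and 0.56 without knockout mouse 6).

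Rpl13 (chromosome 8, 123102350 to 123105242) was the most abundant member by counts per kilobase of exon, at 2131 CPM per kb over the libraries. It had 1670.1, 1679 and 3365 CPM in the knockout libraries, against 1232, 1218 and 783 CPM in the wild-type libraries. Knockout mice 4 and 5 agreed closely and both were above the wild-type libraries (log2 fold change 1.05, SE 0.35, and 0.64 without knockout mouse 6). Rpl10, which joins the large subunit late in its assembly, had 437, 345 and 788 CPM in the knockout libraries, against 426, 369 and 267 CPM in the wild-type libraries. Knockout mouse 5 lay below both wild-type mice 1 and 2. Rpl38, which in mice is needed for translation of a subset of Hox mRNAs, had 153, 122 and 302 CPM in the knockout libraries, against 131, 124 and 55.2 CPM in the wild-type libraries, so the groups overlapped (0.90, SE 0.43, 0.41 without knockout mouse 6 and 0.57 without wild-type mouse 3).

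The pair that forms the 5S particle with 5S ribosomal RNA, and binds Mdm2 when it is free, had different fitted values. Rpl11 had 251, 223 and 379.5 CPM in knockout mice 4, 5 and 6, against 216, 191 and 127 CPM in wild-type mice 1, 2 and 3, without overlap (log2 fold change 0.68, SE 0.29, and 0.41 without knockout mouse 6). Rpl5 had 424, 357 and 556 CPM in the knockout libraries, against 458, 367 and 253 CPM in the wild-type libraries, with overlap (0.31, SE 0.28, 0.12 without knockout mouse 6 and 0.094 without wild-type mouse 3). The 2 fold changes were not tested against each other. In GENCODE, 47.2% of the exon bases of Rpl5 overlap those of Fam69a, and libraries of this kind do not mark strand.

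Of the 31 small subunit genes, 30 had a fold change above 0, and their median was 0.82 on the log2 scale, or 0.34 without knockout mouse 6, with 31 of 31 then above 0. Rps14 (chromosome 18, 60774596 to 60778546), whose loss of one copy underlies a human form of marrow failure, had 653, 646 and 2170.3 CPM in knockout mice 4, 5 and 6, against 597, 466 and 295 CPM in wild-type mice 1, 2 and 3. The groups did not overlap, yet knockout mice 4 and 5 were much closer to wild-type mouse 1 than to knockout mouse 6 (log2 fold change 1.35, SE 0.51, and 0.52 without knockout mouse 6). Rps21 had 42.7, 44.99 and 133 CPM in the knockout libraries, against 40.4, 35.5 and 19.5 CPM in the wild-type libraries (1.21, SE 0.51, and 0.46 without knockout mouse 6). Its groups also did not overlap. Rps12 had 80.3, 99.2 and 272 CPM in the knockout libraries, against 85.9, 77.4 and 45.3 CPM in the wild-type libraries, with knockout mouse 4 below wild-type mouse 1 (1.11, SE 0.48, and 0.37 without knockout mouse 6).

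Rps19, the gene most often mutated in Diamond-Blackfan anaemia, was the second most abundant member, at 1637 CPM per kb. It had 993, 907 and 2323 CPM in the knockout libraries, against 820, 742 and 394 CPM in the wild-type libraries, without overlap (log2 fold change 1.11, SE 0.43, and 0.54 without knockout mouse 6). Of the 18 tested genes mutated in that disease 17 were fitted higher, with a median of 0.73, the same as the class, and without knockout mouse 6 the median was 0.34. Rps6, the substrate of the S6 kinases, had 558, 659 and 1012 CPM in the knockout libraries, against 566, 474 and 326 CPM in the wild-type libraries. Its groups overlapped because knockout mouse 4 lay just below wild-type mouse 1 (0.71, SE 0.31, and 0.42 without knockout mouse 6). Rpsa, also known as a laminin receptor precursor, had 565, 689 and 1661 CPM in the knockout libraries, against 756, 610.2 and 488 CPM in the wild-type libraries (0.65, SE 0.41, and 0.021 without knockout mouse 6).

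All 3 P stalk genes had a fold change above 0, with a median of 0.99 on the log2 scale, or 0.35 without knockout mouse 6. Rplp0, the base of the stalk, had 1340.3, 1429 and 3079 CPM in knockout mice 4, 5 and 6, against 1506, 1395 and 905 CPM in wild-type mice 1, 2 and 3. Its groups overlapped (0.62, SE 0.38, 0.13 without knockout mouse 6 and 0.40 without wild-type mouse 3). Rplp1 had 237, 236 and 573 CPM in the knockout libraries, against 205, 181 and 102 CPM in the wild-type libraries (1.10, SE 0.42, and 0.54 without knockout mouse 6). Rplp2 had 177, 162 and 452 CPM in the knockout libraries, against 162, 159 and 77.3 CPM in the wild-type libraries (0.99, SE 0.46, and 0.35 without knockout mouse 6). The acidic proteins Rplp1 and Rplp2 did not overlap between groups, although knockout mouse 5 and wild-type mouse 1 were nearly equal for Rplp2.

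The 76 standard genes varied as a block. The median correlation of log2 CPM between pairs of them over the 6 libraries was 0.966, and a single principal component held 93.9% of their variance. The order of their levels per kilobase was also kept, with Spearman correlations between libraries of 0.893 to 0.986. Knockout mouse 6 was above knockout mice 4 and 5 in 73 of the 76, by a median of 1.04 on the log2 scale. Wild-type mouse 3 was the lowest library in 73. The 2 other knockout libraries were both above all wild-type libraries in 30 of 76, beside 15.8% of all genes without knockout mouse 6, and their mean exceeded that of the wild type by a median of 0.39 on the log2 scale. These correlations are a description over 6 libraries, in which all genes of a library share its depth and its mix of cells.

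Shorter genes outside the class shifted in the same libraries. Among 809 other genes with 0.5 to 1 kb of exon, the median deviation from the gene's mean log2 CPM was 0.14, 0.03 and 0.50 in knockout mice 4, 5 and 6, and 0.07, 0.02 and -0.61 in wild-type mice 1, 2 and 3. Among 3637 other genes over 4 kb it was 0.07, 0.12 and -0.41 in the knockout libraries, and -0.05, 0.15 and 0.54 in the wild-type libraries. Knockout mouse 6 was thus high and wild-type mouse 3 low for genes of 0.5 to 1 kb, and the reverse for the longest ones, and the same libraries stood apart for ribosomal protein genes. The 156 other genes under 0.5 kb were at 0.36 in knockout mouse 6 and -0.03 in wild-type mouse 3, but the 11 of them that averaged 100 CPM or more were at 0.70 in knockout mouse 6 and -0.84 in wild-type mouse 3. The 164 other genes of 0.5 to 1 kb at that level were at 0.53 in knockout mouse 6 and -0.67 in wild-type mouse 3. The members' median deviations in these libraries were 1.01 and -0.86. The part of exon length in the members' values was not tested beyond the following removal of its trend. Within the class, exon length and log2 fold change had a Spearman correlation of -0.40 over the 76 genes. With each library's trend on exon length removed, the members' median log2 fold change was 0.60 and that of all genes 0.18, a difference of 0.42, against 0.74 without the removal.

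**Figure D3:**
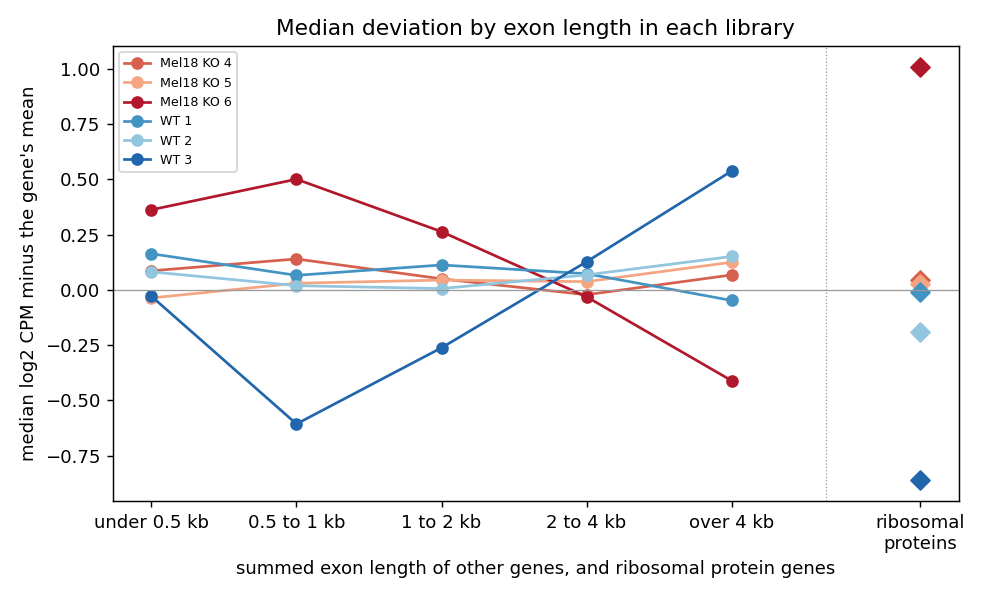
Median deviation of log2 CPM from each gene's mean, by summed exon length, for genes outside the class in each library (lines), and for the ribosomal protein genes (diamonds at the right), with knockout libraries in reds and wild-type libraries in blues. Knockout mouse 6 runs from 0.50 at 0.5 to 1 kb to -0.41 over 4 kb, wild-type mouse 3 from -0.61 to 0.54, and the diamonds of these libraries are at 1.01 and -0.86.

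A few standard genes did not follow the block. Rpl4, a protein that lines the exit tunnel, had 825, 1314 and 1212 CPM in knockout mice 4, 5 and 6, against 1607, 1035 and 1139 CPM in wild-type mice 1, 2 and 3. Its groups were interleaved, and its log2 fold change of -0.17 (SE 0.28) lay below the class. Rpl4 was measured at 836 CPM per kb, and shares 16.5% of its 50-base windows with another transcript, all with a pseudogene.

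Rpl30 and Rps27 were measured at very low levels for ribosomal proteins, at 4.54 and 9.42 CPM per kb, while Rpl34 was at 15.9. Only these 3 of the 76 standard genes were below 20 CPM per kb. Rpl30 had 2.97, 1.93 and 2.08 CPM in the knockout libraries, against 4.66, 3.11 and 2.301 CPM in the wild-type libraries (log2 fold change -0.53, SE 1.04). Rps27 had 7.95, 6.05 and 1.89 CPM in the knockout libraries, against 7.17, 2.11 and 7.31 CPM in the wild-type libraries (-0.06, SE 0.91, and 0.34 without knockout mouse 6). Both groups overlapped, and knockout mouse 6, the highest library for most members, was the lowest for Rps27.

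In GENCODE release M21 a 50-base window of a transcript can also occur in transcripts of other genes, where a counter may drop or split reads. The share of such windows was a median of 38.4% over the standard genes, 72.8% for Rpl30, 46.2% for Rps27 and 10.97% for Rpl34. For Rpl30, 558 of its 807 shared windows occurred in D730044K07Rik, a gene model that overlaps 40.3% of its exon bases. Every shared window of Rps27 occurred in Rps27rt, a protein-coding copy on chromosome 9. The 2 starts are shown because they carry the copied stretch, with capitals for the bases that match, which run on to 38 bases in all. They are from RefSeq (build GRCm38.p6), with Rps27 at chromosome 3, 90213623 to 90213652, minus strand, and Rps27rt at chromosome 9, 114982715 to 114982744, minus strand.
Rps27: cgctcCTTTCCGGCGGTGACGACCTCCCTA
Rps27rt: ccttgCTTTCCGGCGGTGACGACCTCCCTA

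The share of such windows had a Spearman correlation of 0.04 with the level and -0.21 with the fold change over 76 genes. Rpl35, with the highest share at 95.1%, was measured at 734 CPM per kb. Of its 853 shared windows, 529 occurred in Wdr38, which overlaps 33.6% of its exon bases in GENCODE. Shared windows thus include overlap at the same place as well as copies elsewhere. With the genes listed by the authors, 0% of the exon bases of Rpl30 or Rpl35 overlap. The sources used here do not say how reads that map to several genes were treated, and the part of this in the low levels of Rpl30, Rps27 and Rpl34 was not tested.

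The paralogs were compared with their parent genes as a log2 ratio of counts per kilobase, with 0.5 counts added, which does not depend on library scaling. With 3 libraries against 3, an exact two-sided permutation test cannot give a p below 0.1, and 7 pairs were compared. Rpl22l1, a paralog that can stand in for Rpl22 in mice, was at 3.67 to 5.40 times the level of Rpl22 per kilobase in every library. Its exons sum to 477 bases and those of Rpl22 to 2497, so this ratio rests on the division by length. In CPM, without that division, Rpl22l1 was below Rpl22 in knockout mice 5 and 6 and wild-type mice 1 and 2. It was slightly above Rpl22 in knockout mouse 4 and wild-type mouse 3. By itself Rpl22l1 had 102, 101 and 121 CPM in knockout mice 4, 5 and 6, against 78.2, 54.3 and 56.8 CPM in wild-type mice 1, 2 and 3, so its groups did not overlap and knockout mouse 6 did not stand apart as it did for other members. Its log2 fold change was 0.77 (SE 0.25). Rpl22 had 100.3, 116 and 172 CPM in the knockout libraries, against 103, 76.0 and 55.04 CPM in the wild-type libraries (0.73, SE 0.31, and 0.48 without knockout mouse 6). The ratio of the pair averaged 2.16 ± 0.27 in the knockout and 2.11 ± 0.28 in the wild type (log2, SD, n = 3 each; exact permutation p = 1).

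Rpl36al, an autosomal copy of the X-linked Rpl36a, averaged lower relative to its parent in the knockout libraries. The log2 ratio was 0.01, -0.06 and 0.03 in knockout mice 4, 5 and 6, against 0.36, 0.61 and 0.77 in wild-type mice 1, 2 and 3. The groups did not overlap, and the difference of -0.59 had the smallest p the design allows (exact permutation p = 0.1, 0.233 adjusted over the 7 pairs). Rpl36a itself had 138, 128 and 229.8 CPM in the knockout libraries, against 117, 107 and 56.1 CPM in the wild-type libraries, while Rpl36al had 147, 129.7 and 248 CPM, against 159, 172 and 101 CPM. In GENCODE, 64.2% of the exon bases of Rpl36al overlap the gene model Gm49383, and 85.5% of the 50-base windows of Rpl36a occur in other transcripts. With the genes listed by the authors, 0% of the exon bases of Rpl36al overlap.

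Rpl7l1, a relative of Rpl7 that acts in the nucleolus, had log2 ratios of -2.50, -2.62 and -2.73 in the knockout libraries, against -2.21, -2.46 and -2.01 in the wild-type libraries. These did not overlap either (difference -0.39, exact permutation p = 0.1, 0.233 adjusted over the 7 pairs). Rpl7 had 589.6, 661 and 1060.4 CPM in the knockout libraries, against 568, 516 and 358 CPM in the wild-type libraries. Rpl7l1 had 291, 299.9 and 445 CPM, against 343, 263 and 249 CPM. Its exons sum to 2606 bases and those of Rpl7 to 933, and the part of the libraries' length trend in this ratio was not tested.

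Rpl3l, the paralog of Rpl3 known from heart and skeletal muscle, had 0 counts in every knockout library and 52, 19 and 3 counts in wild-type mice 1, 2 and 3. A count of 0 allows up to 3 counts, or 0.0782 CPM in knockout mouse 4, which is close to the 0.0946 CPM of wild-type mouse 3. The log2 ratio to Rpl3 differed by -5.83 with 0.5 counts added (exact permutation p = 0.1, 0.233 adjusted over the 7 pairs), a value that depends on what is added. Rpl3 itself had 1285, 1256 and 2241 CPM in the knockout libraries, against 1231, 1016 and 879.8 CPM in the wild-type libraries.

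In the remaining 3 pairs the ratios overlapped between the groups. Rps27l, a target of p53, had 160.5, 142 and 295 CPM in the knockout libraries, against 170.2, 179 and 80.01 CPM in the wild-type libraries, and 13.5 to 192 times the level of Rps27, whose counts are very low (exact permutation p = 0.7). Rps4l had 39.3, 47.0 and 24.8 CPM in the knockout libraries, against 30.5, 26.4 and 17.2 CPM in the wild-type libraries, and it was lowest relative to Rps4x in knockout mouse 6, where Rps4x had 843 CPM (difference 0.03, p = 1 in the exact permutation test). Rps4x had 533, 531 and 843 CPM in the knockout libraries, against 492, 492 and 315 CPM in the wild-type libraries. Rpl39l, a paralog known from the male germ line, was measured at 0.605 CPM per kb and had 15, 47 and 0 counts in the knockout libraries, against 38, 0 and 0 in the wild-type libraries (exact permutation p = 0.9). Its parent Rpl39 had 89.3, 72.7 and 206 CPM in the knockout libraries, against 85.6, 74.5 and 39.3 CPM in the wild-type libraries. Rpl37rt, a retrogene, had 6.60, 6.37 and 11.2 CPM in the knockout libraries, against 4.46, 4.76 and 2.46 CPM in the wild-type libraries. It was not among the pairs compared, and its groups did not overlap (log2 fold change 1.05, SE 0.75).

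**Figure D4:**
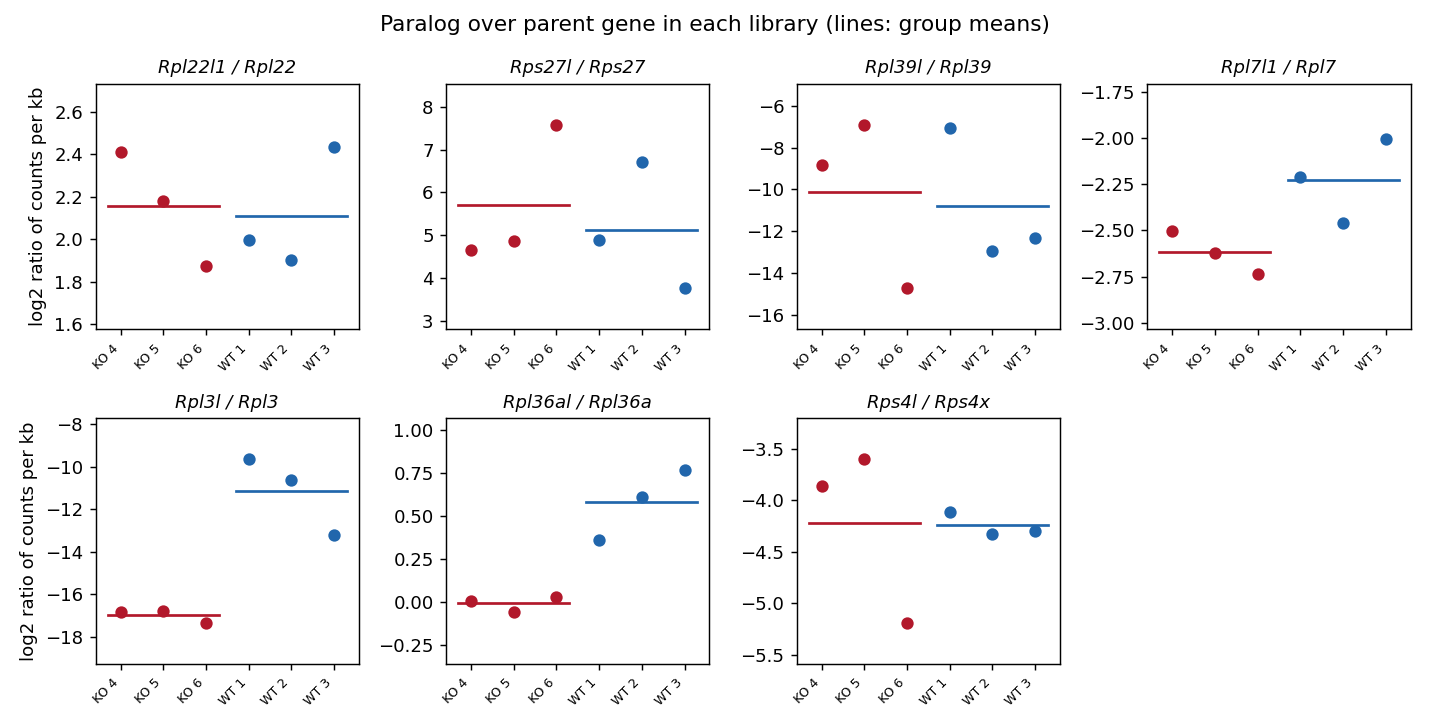
Log2 ratio of counts per kilobase of each paralog to its parent gene in every library, with knockout libraries in red left of wild-type libraries in blue and lines at the group means. Rpl36al over Rpl36a lies between -0.06 and 0.03 in the knockout libraries and between 0.36 and 0.77 in the wild-type libraries, and each panel has its own axis.

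Rps19bp1, taken in by the rule through its name, had 33.1, 32.8 and 37.2 CPM in knockout mice 4, 5 and 6, against 35.9, 34.8 and 21.03 CPM in wild-type mice 1, 2 and 3. Its log2 fold change of 0.17 (SE 0.34, and 0.11 without knockout mouse 6) was among the lowest of the 84.

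The lists of other translation and p53 genes given here had lower medians than the class, and 0 genes of any of the following lists passed edgeR's quasi-likelihood test. Rps27a, a member of the class made as a fusion with ubiquitin, had a log2 fold change of 0.86 (SE 0.39, and 0.38 without knockout mouse 6). Elongation factors and other mRNAs of the TOP class were fitted higher in 16 of 23, with a median of 0.30. Without knockout mouse 6 these were 14 of 23 and 0.06. Of these, Eif3f, an initiation factor subunit, had 229, 172 and 295 CPM in the knockout libraries, against 134, 165 and 122 CPM in the wild-type libraries, without overlap (0.72, SE 0.26). Nap1l1, a histone chaperone with a TOP mRNA, had 118, 169 and 104 CPM in the knockout libraries, against 229.9, 215 and 170.4 CPM in the wild-type libraries (-0.66, SE 0.26).

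Initiation factors were fitted higher in 16 of 37 (median -0.01, and -0.15 without knockout mouse 6). Eif5, the GTPase activator of initiation, had 282, 349 and 246 CPM in the knockout libraries, against 556, 382 and 524 CPM in the wild-type libraries (log2 fold change -0.74, SE 0.24). Eif3b, the scaffold of the eIF3 complex, had 439.96, 531 and 465 CPM in the knockout libraries, against 677, 758 and 729 CPM in the wild-type libraries (-0.59, SE 0.20). Both were without overlap, and opposite in direction to the ribosomal proteins. Of the 37 initiation factors, 2 were higher and 4 lower without overlap, beside 10.1% and 11.3% of all genes. Eif3f, given above, is also on this list and was among the higher.

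Regulators of TOP mRNA translation were fitted higher in 5 of 17 (median -0.48, and -0.14 without wild-type mouse 3). Tia1, an RNA-binding protein that represses TOP mRNAs under stress, had 74.99, 73.9 and 73.6 CPM in the knockout libraries, against 154, 104 and 126 CPM in the wild-type libraries. The knockout values were nearly equal and all below the wild type (log2 fold change -0.79, SE 0.23). Depdc5, part of a complex that restrains mTOR when amino acids are short, had 14.5, 15.0 and 7.48 CPM in the knockout libraries, against 22.1, 18.3 and 49.997 CPM in the wild-type libraries (-1.29, SE 0.53, and -0.72 without wild-type mouse 3). Chaperones and escorts of ribosomal proteins were split, 5 of 10 higher (median -0.06, and -0.24 without knockout mouse 6), with Rrs1, which brings the 5S particle to the pre-ribosome, at 55.8, 66.6 and 61.2 CPM in the knockout libraries, against 101, 94.4 and 108 CPM in the wild-type libraries (-0.73, SE 0.22).

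Genes of the p53 pathway were fitted higher in 7 of 16 (median -0.16, and -0.07 without knockout mouse 6). Cdkn1a, which encodes the cell cycle inhibitor p21, had 27.5, 14.6 and 24.3 CPM in the knockout libraries, against 70.4, 46.0 and 98.0 CPM in the wild-type libraries (log2 fold change -1.69, SE 0.39; adjusted p = 0.150 by the edgeR fit, Benjamini-Hochberg). Pmaip1, which encodes the death-promoting protein Noxa, had 0.209, 2.35 and 4.28 CPM in the knockout libraries, against 19.6, 13.7 and 43.2 CPM in the wild-type libraries (-3.49, SE 1.01; adjusted p = 0.228 in the same edgeR test). DESeq2 placed both below an adjusted p of 0.05, at 0.00523 for Cdkn1a and 0.00751 for Pmaip1, as did edgeR's likelihood ratio test, at adjusted p = 0.00741 and 0.0284. DESeq2 called 2.58% of all genes lower and the likelihood ratio test 2.29%, against 0.127% by the quasi-likelihood test. Knockout and wild-type libraries did not overlap for either gene, and the wild-type libraries that hold more of these transcripts also hold more markers of progenitors and cycling cells, whose part was not tested.

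**Figure D5:**
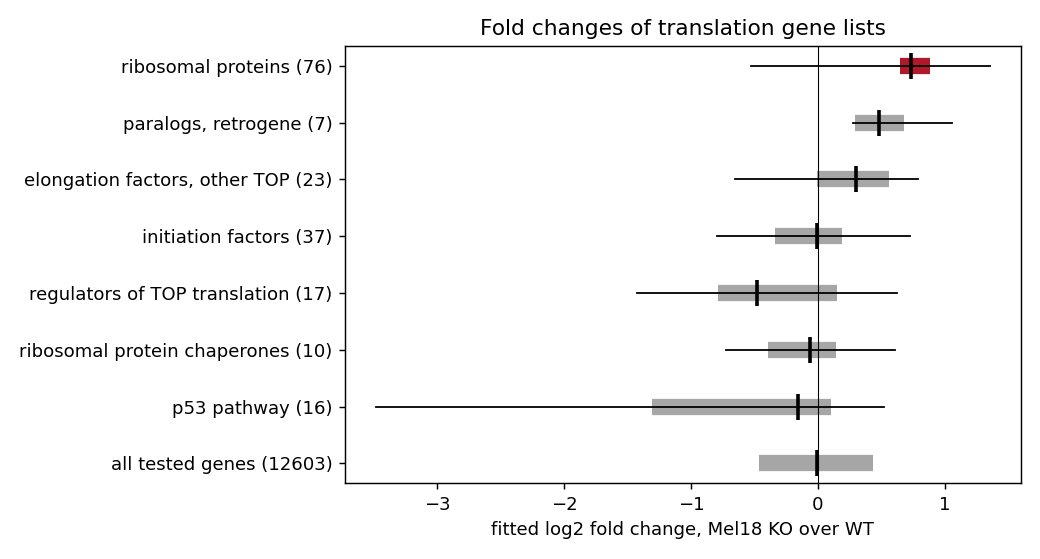
Fitted log2 fold changes, Mel18 knockout over wild type, of the ribosomal protein genes and of other lists of translation genes, with thick bars for the middle range between quartiles, ticks at medians, thin lines for the full range (not drawn for all genes) and the number tested in brackets. The standard ribosomal proteins have a median of 0.73, elongation factors and other TOP mRNAs 0.30, initiation factors -0.01 and all tested genes -0.01.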

How the data were processed

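The authors deposited raw counts per gene beside exon lengths, log2 fold changes and p-values in a single table. The build was mm10 and the tools named were edgeR 3.28.1, STAR 2.5, Trimmomatic 0.40, MultiQC 0.11.5 and FastQC, per the submitters' processing notes. Libraries were made with the SMART-Seq v4 and Nextera XT kits, per the labels' protocols, which do not mark strand. The deposited log2 fold changes and p-values are quoted only as the authors' own.

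Counts were tested in R 4.3.3 with edgeR 4.0.16: genes kept by filterByExpr (minimum 10 counts), TMM scaling, the two-sided quasi-likelihood test with robust estimation, Benjamini-Hochberg adjustment over all 12603 genes and a threshold of 0.05. The test was checked on simulated counts. CPM values use scaled library sizes, and log2 CPM a prior count of 2. Alternatives used DESeq2 1.42.0, limma 3.58.1 (voom), other scalings and filters, removal of each library's trend on exon length and leaving out libraries. Totals limit precision to 3 counts as a floor, and floors cover counting error only.

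The members and gene lists were chosen with earlier results of these data known. Full values are given for the 6 members with the largest and the 6 with the smallest fitted change, paralogs with their parents, P stalk and 5S proteins, 6 further proteins, and the highest and lowest by level; of other lists, the 2 genes with the smallest p. The labels number the mice, but p-values measure only the spread between these libraries. Results for 2 single genes are not reported here.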

Additional observations from a re-analysis of the deposited data

How the results depend on the processing

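No member was called under any alternative except DESeq2, which called 2, and the edgeR quasi-likelihood test called 0 at an adjusted p below 0.1. Of all tested genes, limma-voom called 0, as did the fits without knockout mouse 4 or without wild-type mouse 1, 2 or 3. The absence of called members in those fits is therefore not particular to the class. The likelihood ratio test called 1.14% of all genes higher and 2.29% lower. The median log2 fold change was 0.60 to 0.76 under the other tests, scalings, filters and the removal of the length trend, and 0.34 to 0.89 when each library was left out in turn, with 0.34 without knockout mouse 6 and 0.49 without wild-type mouse 3. The 0.60 is from the removal of the length trend, where the median of all genes was 0.18. The members' median minus that of all genes was then 0.42, against 0.72 to 0.78 under the other tests, scalings and filters. The difference in share of counts was 0.769 to 2.18 percentage points over the left-out libraries, with the lowest value without knockout mouse 6. Members without overlap numbered 49 with library totals alone (11.6% of all genes) and 30 to 59 over the left-out libraries, with 59 without wild-type mouse 1 (14% of all genes) and 30 without wild-type mouse 2 (14.1%) or wild-type mouse 3 (12.6%). In these fits 0 to 2 members were lower without overlap. At an unadjusted p below 0.05 there were 2 without wild-type mouse 3, 6 without wild-type mouse 2 and 41 without knockout mouse 5 (3.51%, 4.8% and 4.74% of all genes higher). The differences of 4 paralog ratios changed sign when a library was left out: the log2 difference ranged from -0.082 to 0.21 for Rpl22l1 over Rpl22, from -0.36 to 1.38 for Rps27l over Rps27, from -0.99 to 2.91 for Rpl39l over Rpl39 and from -0.28 to 0.51 for Rps4l over Rps4x, and Rpl39l over Rpl39 was -0.36 with 5 counts added. The ratios of Rpl36al (-0.70 to -0.49), Rpl7l1 (-0.51 to -0.29) and Rpl3l (-6.84 to -5.07) kept their sign in these fits. Fitted log2 fold changes that also changed sign were those of Rpl4 (-0.33 to 0.039), Rps27 (-0.48 to 0.34), Rps19bp1 (-0.061 to 0.30), Rpl36al (-0.059 to 0.43), Pcgf2 (-0.038 to 0.57) and Rpl39l (-1.12 to 7.18, the last with all remaining wild-type counts at 0, where it depends on the prior count). The cause of these changes was not tested. No paired analysis was possible because the labels number the mice 1 to 3 and 4 to 6, so that no number is shared between the groups. Depth limits Rpl3l, Rpl39l, Rpl30 and Rps27, which have few counts.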
